A study of Mus musculus with 6 samples.

Results

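The 10 genes described here encode the small leucine-rich proteoglycans of the extracellular matrix and their close relatives: Bgn, Dcn, Aspn, Fmod, Lum, Prelp, Omd, Epyc, Ogn and Chad. They were taken by gene name as members of the family. All 10 had an entry among the 44788 of the count table, and all 10 passed the low-count filter, which left 15362 genes. The libraries came from chondrocytes, the cells that build cartilage, taken from the femoral epiphysis of C57BL/6 mice (postnatal day 1 by the sample labels) and cultured with 10% FBS. Every group received 0.1% DMSO, and each had 2 libraries. The TGF-alpha group had 10 ng/ml of TGF-alpha, which binds and activates the receptor for epidermal growth factor (EGFR), over 48 h. In the TGF-alpha plus gefitinib group, 10 μM gefitinib, an inhibitor of the EGFR kinase, was added 30 min ahead of the ligand and kept on with it. The control group had neither, and the series' design text names PBS in place of DMSO for it. The cells are also called P2, which is not explained. A group given gefitinib without the ligand was not analysed here. No label says that the 2 libraries of a group were separate cultures or animals, so p-values measure the spread between these libraries, which may be technical.

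Small leucine-rich proteoglycans have a curved core of leucine-rich repeats with which most of them bind collagen fibrils, and they are known for limiting fibril diameter and spacing in cartilage, tendon, skin and cornea. Many carry glycosaminoglycan chains, chondroitin or dermatan sulfate in class I and keratan sulfate in most of class II. Several also bind growth factors, and decorin, the Dcn product, is known from human tumour cells as a ligand of EGFR itself. Class I here comprises biglycan (Bgn), decorin and asporin (Aspn). Class II comprises fibromodulin (Fmod), lumican (Lum), PRELP (Prelp) and osteomodulin (Omd), class III epiphycan (Epyc) and osteoglycin (Ogn), and class IV chondroadherin (Chad).

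Total counts per library lay between 12317407 and 16096263, with 20600 to 21067 genes detected. The defining chondrocyte genes Col2a1 and Acan were at 27134 and 1842 CPM (counts relative to library size, scaled by TMM) or more in every library. All 10 chondrocyte markers on a list for this tissue were lower with TGF-alpha than in control, with a summed level of 33016 to 34121 CPM against 62778 to 67364 CPM. With TGF-alpha plus gefitinib the sum was 55295 to 58128 CPM. Of the endothelial and erythroid markers, 0 of 12 passed the filter, with at most 8 counts in a library, and the leukocyte markers Ptprc and Itgam had 0 counts. Of the 6 macrophage markers 2 were tested. Cd68, a lysosomal membrane protein gene, was higher with TGF-alpha, at 8.22 and 9.74 CPM against 1.17 and 1.91 CPM in control (log2 2.51 ± 0.28, adjusted p = 5.86e-06), and Lyz2, the lysozyme gene, was lower, at 0.289 and 1.24 CPM against 2.65 and 1.97 CPM (log2 -1.58 ± 0.48, adjusted p = 0.0218). Cd68 was lower when gefitinib was added to TGF-alpha (log2 -1.81 ± 0.26, adjusted p = 6.91e-05). Fibroblast and perichondrial markers, among them the type I and III collagen genes but none of the 10, summed to 14603 to 14714 CPM with TGF-alpha and 22127 to 24014 CPM in control. Most of that sum was the type I collagen genes. Col1a1 was at 2769 and 2879 CPM against 6422 and 6020 CPM, and Col1a2 at 6177 and 6324 CPM against 12107 and 11120 CPM. Of the 10 tested markers on this list 5 were lower and 2 higher, beside 14.0% and 15.9% of all tested genes. S100a4 rose, at 119 CPM in each TGF-alpha library against 35.1 and 36.3 CPM, and Pdgfra was at 329 and 326 CPM against 172 and 176 CPM. Osteoblast markers summed to 85.1 to 91.98 CPM with TGF-alpha against 179 to 182 CPM in control. Of 5 tendon markers Egr1, Scx and Thbs4 were higher, with a sum of 286 to 315 CPM against 70.7 to 88.9 CPM. Most of that sum was Egr1, also an early response gene of growth factor signalling, at 243 and 272 CPM against 38.1 and 60.2 CPM, and Tnmd and Mkx did not pass the test. Cd68, Lyz2, Col1a1, Col1a2, S100a4, Pdgfra and Egr1 are named here after their values were seen. The part of cell makeup in the results that follow was not tested, and in such bulk samples fewer cells of a type and less RNA per cell cannot be told apart.

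As a group the 10 genes took 0.649% and 0.690% of counts in the TGF-alpha libraries, 0.702% and 0.731% with TGF-alpha plus gefitinib, and 0.748% and 0.746% in control. Bgn was the 23rd most abundant of the 15362 tested genes by mean CPM and Fmod the 52nd, while Chad was the 11469th. Levels between genes were compared as CPM per kilobase of the median annotated transcript. In control the order was Bgn (2178 to 2284 CPM per kilobase), Fmod (1112 to 1148), Dcn (327 to 365), Ogn (309 to 316), Prelp (136 to 138), Lum (119 to 124), Epyc (63.8 to 68.3), Aspn (22.3 to 22.6), Omd (19.5 to 21.5) and Chad (3.39 to 3.60). No neighbours in this order overlapped in their control libraries. The places of Dcn, Prelp and Lum depended on the transcript used. With the longest transcripts Dcn was at 130 CPM per kilobase in control, below Ogn at 313, and Lum at 121 was above Prelp at 84.1. By median transcript, Lum with TGF-alpha stood above Prelp, at 160 to 176 against 131 CPM per kilobase, whereas with TGF-alpha plus gefitinib Lum was below it, at 94.9 to 102 against 139 to 144. That swap was not seen with the longest transcripts, where Lum was above Prelp in each group, at 168 against 80.4 with TGF-alpha and 98.2 against 86.9 with TGF-alpha plus gefitinib. With TGF-alpha plus gefitinib Aspn (14.6 to 17.1) and Omd (16.2 to 16.6) overlapped.

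**Figure D1:**
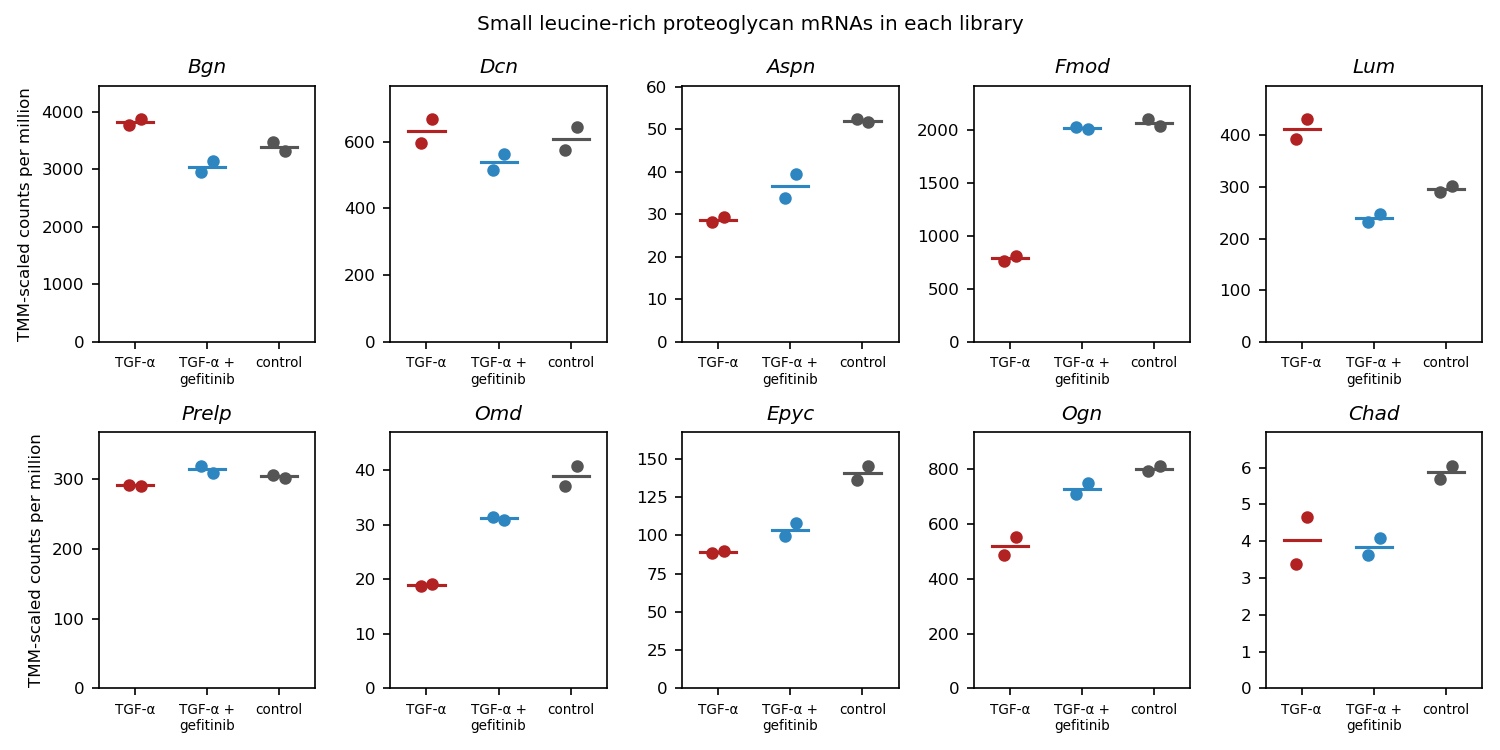
TMM-scaled CPM of each gene (y axis, from 0) in the 2 libraries of each group (points) with the group mean (bar), by group on the x axis. Fmod, Omd, Aspn, Epyc and Ogn are lowest with TGF-alpha, Lum is highest there, and Prelp lies between 291 and 319 in all 6 libraries.

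The first comparison asked what EGFR activation by TGF-alpha did to this gene family. The 7 members that passed the test, against 29.9% of all tested genes, did not move in 1 direction. Fmod, Omd, Aspn, Epyc and Ogn fell, Lum and Bgn rose, and Dcn, Prelp and Chad did not pass the test. The 5 genes that fell stand against 14.0% of all tested genes called lower, and the 2 that rose against 15.9% called higher. Fmod and Omd were at least 2-fold lower, as were 2.88% of all tested genes, and 0 members were at least 2-fold higher, against 4.19%. Groups did not overlap for 9 of the 10 members, against 64.1% of all tested genes. The median log2 fold change of the 10 was -0.59, beside a median of 0.0039 over all tested genes.

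The class II genes covered the whole range of responses. Fmod encodes fibromodulin, a keratan sulfate proteoglycan that binds fibrillar collagen. It was at 760 and 813 CPM with TGF-alpha, against 2097 and 2030.3 CPM in control. Both TGF-alpha libraries thus lay far below both control libraries, a 2.62-fold fall (log2 fold change -1.39 ± 0.04 SE, edgeR adjusted p = 9.06e-12). Omd, which encodes osteomodulin, a proteoglycan of mineralizing tissue, had 18.8 and 19.1 CPM with TGF-alpha and 37.2 and 40.8 CPM in control. Its groups were also apart, with a 2.06-fold fall (log2 -1.04 ± 0.09, adjusted p = 7.35e-07). Lum, whose product lumican is known to share a binding site on fibrillar collagen with fibromodulin, was at 392 and 431 CPM with TGF-alpha, against 291 and 303 CPM in control. It was higher in both TGF-alpha libraries, by 1.39-fold (log2 0.47 ± 0.06, adjusted p = 1.10e-05). Prelp, whose product is known for binding heparan sulfate as well as collagen, had 291 CPM in each TGF-alpha library and 306 and 302 CPM in control. The groups did not overlap, but the difference did not pass the test (log2 -0.06, 95% interval -0.16 to 0.03, adjusted p = 0.333).

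Because Fmod and Lum moved apart, their ratio was also taken within each library, where it does not depend on scaling between libraries. There were 1.94 and 1.89 Fmod counts per Lum count with TGF-alpha, 8.73 and 8.06 under TGF-alpha plus gefitinib, and 7.22 and 6.71 in control. The 3 groups did not overlap, and the TGF-alpha mean was 3.64-fold below the control mean. Fmod counts per Bgn count were 0.202 and 0.210 with TGF-alpha, 0.685 and 0.638 under TGF-alpha plus gefitinib, and 0.603 and 0.612 in control. For such a ratio, a two-sided exact permutation test on 2 and 2 libraries has 0.333 as its smallest p, so no test is given. Summed per transcript length over the 10 genes, Bgn made up 64.9% ± 0.889 with TGF-alpha, 49.8% ± 0.701 with TGF-alpha plus gefitinib and 50.8% ± 0.989 in control (SD, n = 2 in each). Fmod made up 11.1% ± 0.162, 27.5% ± 0.977 and 25.7% ± 0.227 of that sum in the same groups. These shares are tied to each other, so a fall of 1 gene raises the shares of the others. Bgn itself had a mean of 2507 CPM per kilobase with TGF-alpha against 2231 in control, and Fmod 431 against 1130.

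**Figure D2:**
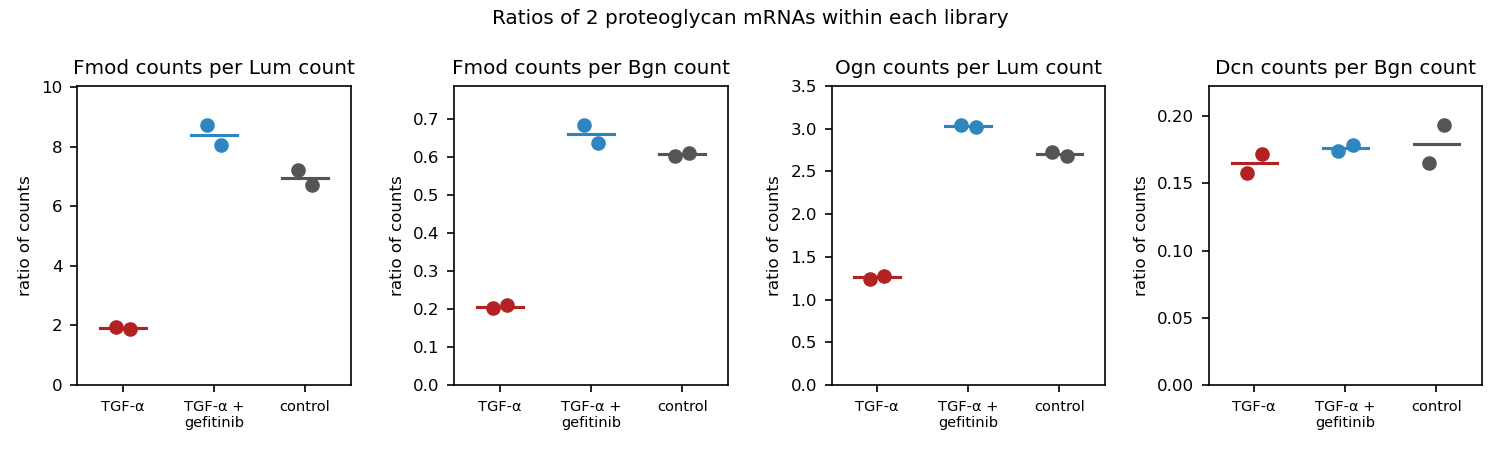
Ratios of the counts of 2 genes within a library (y axes, from 0), by group (x axis), with points for libraries and bars for group means. Fmod per Lum is 1.89 to 1.94 with TGF-alpha and 6.71 to 8.73 in the other 4 libraries, whereas Dcn per Bgn lies between 0.158 and 0.194 in all 6.

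Class I held a gene in each direction. Aspn encodes asporin, which carries a run of aspartate residues and no glycosaminoglycan chain. It was at 28.2 and 29.3 CPM with TGF-alpha, against 52.4 and 51.7 CPM in control, a 1.81-fold fall with no overlap (log2 -0.86 ± 0.09, adjusted p = 3.64e-06). Bgn, which encodes biglycan, the most abundant member, had 3768 and 3872 CPM with TGF-alpha and 3479.9 and 3319 CPM in control. This 1.12-fold rise passed the test (log2 0.17 ± 0.04, adjusted p = 0.0085), but not on leaving out control 2 (adjusted p = 0.0943) or TGF-alpha 2 (adjusted p = 0.0765). For Dcn the libraries overlapped, at 596 and 666 CPM with TGF-alpha and 575 and 642 CPM in control (log2 0.05, 95% interval -0.08 to 0.19, adjusted p = 0.598). The fitted difference of Dcn turned negative without control 1 (log2 -0.03) or TGF-alpha 2 (log2 -0.03).

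Both class III genes fell. Epyc encodes epiphycan, a proteoglycan named after epiphyseal cartilage, and had 88.3 and 89.5 CPM with TGF-alpha against 136 and 145 CPM in control (1.58-fold lower, log2 -0.66 ± 0.06, adjusted p = 8.85e-07). Ogn, which encodes osteoglycin, also called mimecan, had 486 and 551 CPM with TGF-alpha against 792 and 812 CPM in control (1.55-fold lower, log2 -0.63 ± 0.06, adjusted p = 5.91e-07). In both genes each TGF-alpha library was below each control library. Chad encodes chondroadherin, a cartilage protein that binds integrins, and rested on 47 to 95 counts a library. It was at 3.39 and 4.65 CPM with TGF-alpha and 5.70 and 6.05 CPM in control. The groups did not overlap and the difference did not pass the test (log2 -0.55, 95% interval -1.04 to -0.05, adjusted p = 0.091).

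**Figure D3:**
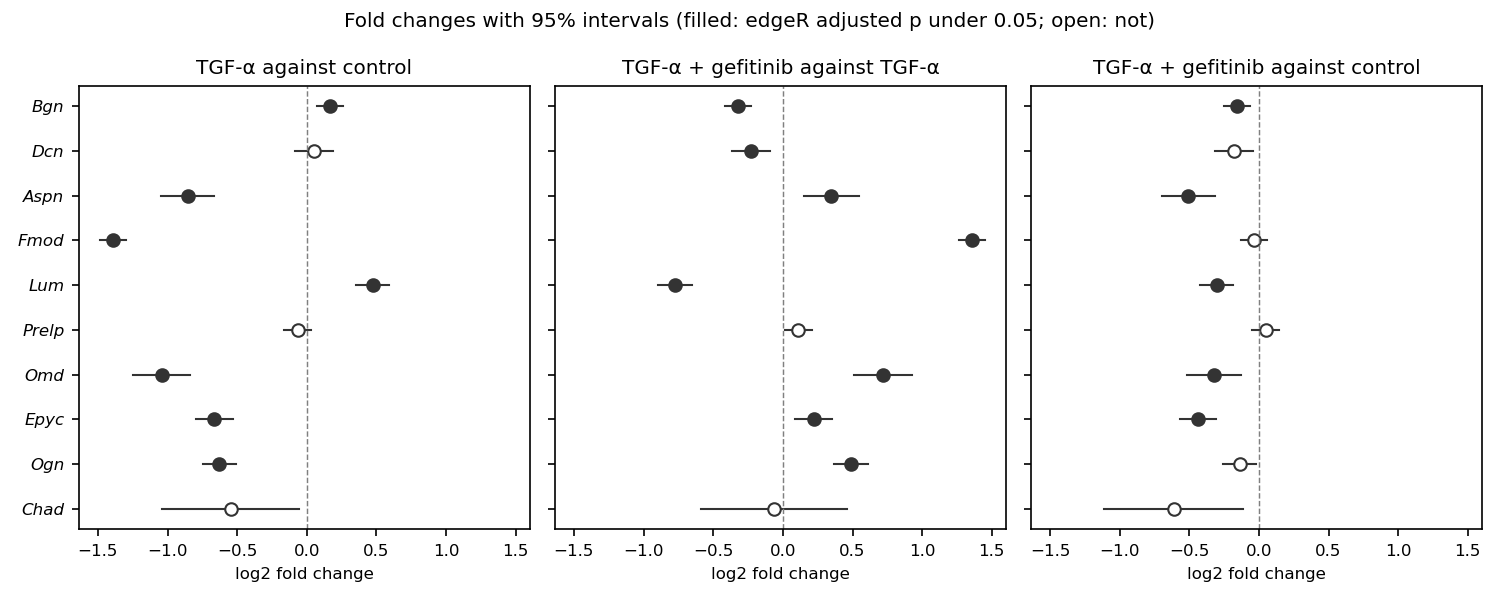
Log2 fold change (x axis) of each gene (rows) in the 3 comparisons, with 95% intervals as lines, filled points for an edgeR adjusted p under 0.05 and open points otherwise. Fmod is at -1.39 for TGF-alpha against control and 1.36 for gefitinib added to TGF-alpha, and Lum is at 0.47 and -0.78.

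Cells given the ligand with the EGFR inhibitor were then set against cells given the ligand alone. Fmod, Omd, Ogn, Aspn and Epyc were higher with gefitinib, and Lum, Bgn and Dcn were lower. Fmod was at least 2-fold higher, as were 3.41% of all tested genes, and 0 members were at least 2-fold lower, against 4.47%. In all 8 members were called, against 34.0% of all tested genes. The 5 rises stand beside 17.0% of all tested genes called higher and the 3 falls beside 16.9% called lower, while Prelp and Chad did not pass the test. All 10 chondrocyte markers were higher with gefitinib too, and their part in these values was not tested. This comparison shares the TGF-alpha libraries with the first, so opposite signs in the 2 are not separate evidence. The groups did not overlap in 9 of 10 members, against 65.8% of all tested genes.

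Fmod had 2028 and 2004 CPM with TGF-alpha plus gefitinib, against 760 and 813 CPM with TGF-alpha, a 2.56-fold rise (log2 1.36 ± 0.04, adjusted p = 1.10e-11). Omd had 31.5 and 30.9 CPM with the inhibitor and 18.8 and 19.1 CPM without it, a 1.65-fold rise (log2 0.72 ± 0.10, adjusted p = 3.68e-05). Ogn was at 707 and 749 CPM against 486 and 551 CPM (log2 0.49 ± 0.06, adjusted p = 7.37e-06). In these 3 genes every library with gefitinib lay above every library with TGF-alpha alone.

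The rises of Aspn and Epyc were smaller and depended on single libraries. Aspn had 33.8 and 39.6 CPM with TGF-alpha plus gefitinib, against 28.2 and 29.3 CPM with TGF-alpha (log2 0.35 ± 0.09, adjusted p = 0.00924). The adjusted p of Aspn was 0.0668 without TGF-alpha 1 and 0.111 without TGF-alpha plus gefitinib 2. Epyc had 99.8 and 108 CPM against 88.3 and 89.5 CPM (log2 0.22 ± 0.06, adjusted p = 0.0122). Its adjusted p was 0.0787 without TGF-alpha 1, 0.0525 without TGF-alpha 2 and 0.0913 without TGF-alpha plus gefitinib 2. Without TGF-alpha 1 or without TGF-alpha plus gefitinib 2, 3 of the 10 genes were called higher in place of 5.

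Among the genes that fell with gefitinib, Lum changed most. Lum had 232 and 249 CPM with TGF-alpha plus gefitinib, against 392 and 431 CPM with TGF-alpha, a 1.71-fold fall with no overlap (log2 -0.78 ± 0.06, adjusted p = 6.00e-08). Bgn had 2963 and 3139.9 CPM against 3768 and 3872 CPM, 1.25-fold lower (log2 -0.32 ± 0.04, adjusted p = 3.81e-05). Dcn had 516 and 561 CPM against 596 and 666 CPM (log2 -0.23 ± 0.06, adjusted p = 0.0123), and that call was lost without TGF-alpha 2 (adjusted p = 0.18) or TGF-alpha plus gefitinib 1 (adjusted p = 0.0709). Prelp had 319 and 309 CPM with TGF-alpha plus gefitinib and 291 CPM in each TGF-alpha library (log2 0.11, 95% interval 0.01 to 0.21, adjusted p = 0.0734). Chad had 3.63 and 4.08 CPM against 3.39 and 4.65 CPM, an overlap (log2 -0.06, 95% interval -0.58 to 0.46, adjusted p = 0.873).

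TGF-alpha plus gefitinib was also compared with control, to show which members differed from the vehicle control when ligand and inhibitor were both present. Epyc, Aspn, Lum, Omd and Bgn were lower than in control, while 4.26% of all tested genes were called lower and 9.52% in either direction. Of the 10 chondrocyte markers 1 was higher and 5 were lower. In edgeR 0 members were called higher, against 5.27% of all tested genes, with 0 also at an unadjusted p under 0.05 and 0 in DESeq2. Against the 5 called lower in edgeR, 8 were lower at an unadjusted p under 0.05 and 4 in DESeq2. The share of all tested genes lower by these other rules was not taken, so no excess is read from these counts. In each of the 10 members the groups did not overlap, against 52.1% of all tested genes in either direction. Of the 10 members 9 were lower, and the share of all genes apart in that direction was not taken. Fmod, at 2028 and 2004 CPM with TGF-alpha plus gefitinib and 2097 and 2030.3 CPM in control, did not pass the test (log2 -0.03, 95% interval -0.13 to 0.06, adjusted p = 0.71). Prelp did not either (log2 0.05, 95% interval -0.05 to 0.15, adjusted p = 0.589).

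Epyc and Aspn were below control with the inhibitor present. Epyc had 99.8 and 108 CPM with TGF-alpha plus gefitinib, against 136 and 145 CPM in control, 1.36-fold lower (log2 -0.44 ± 0.06, adjusted p = 0.000293). Aspn had 33.8 and 39.6 CPM against 52.4 and 51.7 CPM, 1.42-fold lower (log2 -0.51 ± 0.09, adjusted p = 0.00195). Lum, which TGF-alpha alone raised, was below control when gefitinib was present, at 232 and 249 CPM against 291 and 303 CPM (log2 -0.30 ± 0.06, adjusted p = 0.00308, but 0.0575 without control 2).

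The calls of Omd and Bgn in this comparison were weaker. Omd had 31.5 and 30.9 CPM with TGF-alpha plus gefitinib against 37.2 and 40.8 CPM in control (log2 -0.32 ± 0.09, adjusted p = 0.0351). Leaving out a library other than TGF-alpha 1 ended that call, with an adjusted p of 0.0646 without control 1, 0.254 without control 2, 0.0502 without TGF-alpha 2, 0.086 without TGF-alpha plus gefitinib 1 and 0.144 without TGF-alpha plus gefitinib 2. Bgn had 2963 and 3139.9 CPM against 3479.9 and 3319 CPM (log2 -0.16 ± 0.04, adjusted p = 0.0363). Its adjusted p was 0.247 without control 1, 0.0616 without control 2, 0.0504 without TGF-alpha 2 and 0.149 without TGF-alpha plus gefitinib 1. Between 2 and 5 members were called when each library was left out in turn, with 2 without control 2 and 3 without TGF-alpha plus gefitinib 1, TGF-alpha 2 or control 1. Ogn (log2 -0.14, adjusted p = 0.138), Dcn (log2 -0.18, adjusted p = 0.103) and Chad (log2 -0.61, 95% interval -1.11 to -0.11, adjusted p = 0.121) were not called.

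Most of the family sits in 3 gene clusters, and the members of a cluster did not always move together. On chromosome 13 Aspn (49544443 to 49567565 in GRCm38), Omd (49582462 to 49592822) and Ogn (49608046 to 49624501) lie on the same strand, 14897 and 15224 bases apart, next to their relative Ecm2. All 3 fell with TGF-alpha and rose with gefitinib, and so did Ecm2, which had 48 and 31 counts with TGF-alpha, 69 and 69 under TGF-alpha plus gefitinib, and 79 and 88 in control (TGF-alpha against control, log2 -1.04 ± 0.25, adjusted p = 0.00566, and TGF-alpha plus gefitinib against TGF-alpha, log2 0.84 ± 0.26, adjusted p = 0.0209). Beyond Ogn, the unrelated gene Nol8 also fell with TGF-alpha (log2 -0.36 ± 0.13, adjusted p = 0.0439). With gefitinib added to TGF-alpha, Nol8 did not pass the test and its groups overlapped (log2 0.14 ± 0.13, adjusted p = 0.434).

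The clusters on chromosomes 10 and 1 were mixed. On chromosome 10 the order is Dcn (97479609 to 97518143), Lum (97565128 to 97572703), the keratocan gene Kera and Epyc (97644068 to 97682454). With TGF-alpha Dcn did not pass the test, Lum rose, Kera was not tested, with no library above 2 counts, and Epyc fell. On chromosome 1 Prelp (133910304 to 133921414, reverse strand) and Fmod (134037254 to 134048277, forward strand) are neighbours 115840 bases apart, and Fmod fell while Prelp did not pass the test. Optc, the opticin gene 2305 bases from Prelp, had at most 13 counts in any library. Btg2, an unrelated gene 26893 bases from Fmod, moved opposite to Fmod. It rose with TGF-alpha (log2 0.58 ± 0.11, adjusted p = 0.000744) and was lower with gefitinib added (log2 -0.38 ± 0.11, adjusted p = 0.0134). Chad (chromosome 11, 94565047 to 94569127) and Bgn (X chromosome, 73483602 to 73495933) lie alone. Lrrc59, 60640 bases from Chad, fell with TGF-alpha (log2 -0.40 ± 0.05, adjusted p = 1.34e-05) and rose with gefitinib added (log2 0.32 ± 0.05, adjusted p = 0.0001). The neighbours Haus7 of Bgn, Btg1 of Dcn and Rsad1 of Chad did not pass the test in either comparison.

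**Figure D4:**
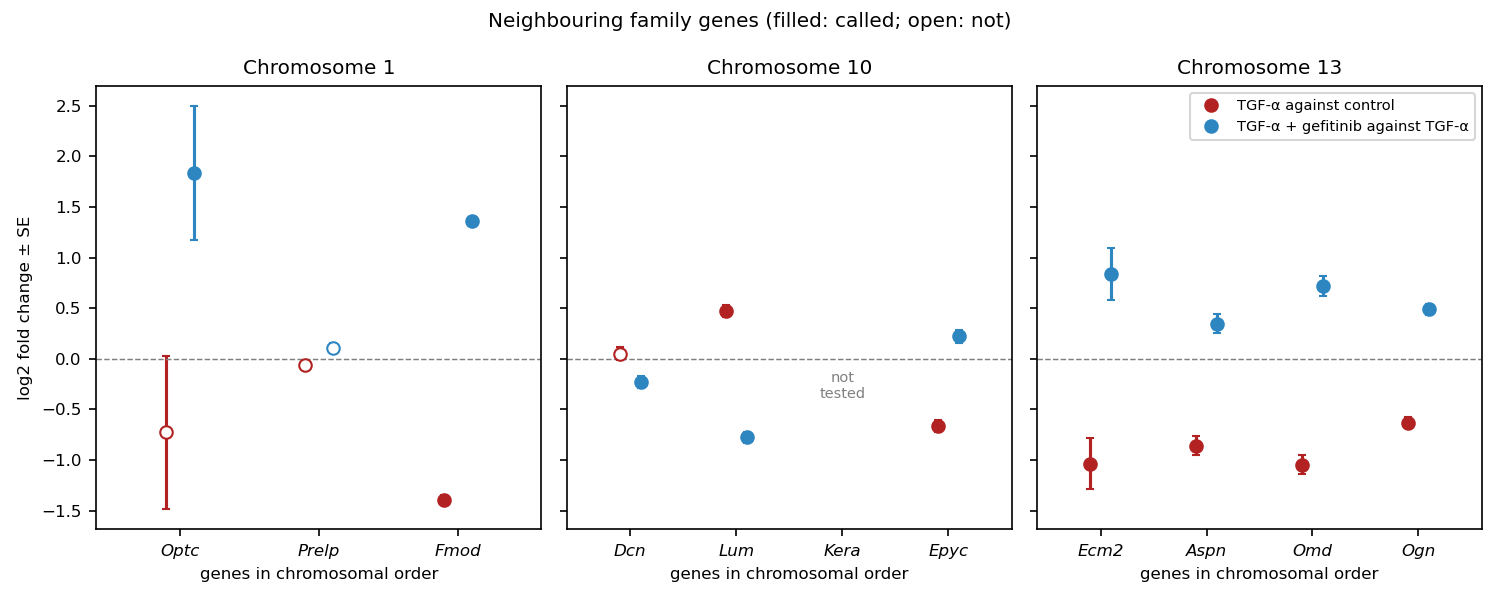
Log2 fold change with its SE (y axis) of the family genes in chromosomal order (x axis) on chromosomes 1, 10 and 13, for TGF-alpha against control and for TGF-alpha plus gefitinib against TGF-alpha, with filled points for called genes. The 4 genes on chromosome 13 are all below 0 in the first comparison and above 0 in the second, whereas on chromosome 10 Lum and Epyc have opposite signs.

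Some of these genes overlap others on the opposite strand, and whether the counting used strand is not given in the sources used here. Aspn, Omd, Ogn and their relative Ecm2 lie inside Cenpp, a kinetochore protein gene with 75 and 64 counts with TGF-alpha, 32 and 28 under TGF-alpha plus gefitinib, and 9 and 24 in control. Ecm2 had 31 to 88 counts a library, of a size with those of Cenpp, so the counts of Ecm2 are uncertain. The members' own counts were at least 260 for Omd, 391 for Aspn and 6746 for Ogn. Cenpp was higher with TGF-alpha (log2 2.13 ± 0.33, adjusted p = 0.00018) where the 3 members were lower. Chad lies inside Acsf2, an acyl-CoA synthetase family gene with 138 to 215 counts a library, more than the 47 to 95 of Chad itself, so the counts of Chad are uncertain. The antisense gene Gm15851 overlaps Prelp and is not in the count table.

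Promoter windows, from 250 bases before to 50 after the start of a gene, were available from RefSeq for 8 of the 10 members, with 2 windows for Epyc, and not for Dcn and Lum. The bases before the start are shown for Fmod and Prelp, as the neighbours that responded differently, and for Epyc, as the member with a motif match. Each reads 5′ to 3′ on the strand of the gene in GRCm38.p6, and capitals mark a SOX motif match. The Fmod stretch is chr1:134037004-134037253 (forward), that of Prelp chr1:133921402-133921651 (reverse), and those of Epyc chr10:97643818-97644067 and chr10:97646853-97647102 (forward).
Fmod: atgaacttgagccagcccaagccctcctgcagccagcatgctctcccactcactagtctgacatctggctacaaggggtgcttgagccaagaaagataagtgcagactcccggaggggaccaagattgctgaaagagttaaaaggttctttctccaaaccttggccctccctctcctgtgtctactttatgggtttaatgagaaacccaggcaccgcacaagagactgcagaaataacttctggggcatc
Prelp: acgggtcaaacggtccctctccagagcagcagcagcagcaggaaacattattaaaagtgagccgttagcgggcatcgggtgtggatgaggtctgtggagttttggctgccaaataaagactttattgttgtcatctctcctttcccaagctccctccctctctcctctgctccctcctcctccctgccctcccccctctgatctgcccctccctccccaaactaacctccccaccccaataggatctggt
Epyc, first start: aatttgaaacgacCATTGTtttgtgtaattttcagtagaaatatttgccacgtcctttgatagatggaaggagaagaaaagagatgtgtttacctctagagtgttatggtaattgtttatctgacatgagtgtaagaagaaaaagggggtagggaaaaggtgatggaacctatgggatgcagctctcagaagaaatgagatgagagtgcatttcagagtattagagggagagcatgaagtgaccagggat
Epyc, second start: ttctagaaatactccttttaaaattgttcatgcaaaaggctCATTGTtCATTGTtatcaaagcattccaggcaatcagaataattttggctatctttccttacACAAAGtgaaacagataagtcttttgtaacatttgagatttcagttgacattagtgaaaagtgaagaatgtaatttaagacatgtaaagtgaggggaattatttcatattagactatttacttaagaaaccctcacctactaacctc
The letters ACAAAG or ACAATG, bound by SOX factors, were searched on both strands, and so were TGANTCA (AP-1) and CCGGAAG (ETS). SOX letters were in both Epyc windows, at 1 place in the first and 3 in the second, and in none of the 7 other windows of members, against 28.6% of all 32851 windows. Of the 9 windows of members 0 held the AP-1 letters and 0 the ETS letters, against 7.81% and 8.86% of all windows. A match is a run of letters, not a measured binding site, and its absence says only that these letters are not in the window.

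Across the 6 libraries, the pattern of each member was compared with those of 9605 genes whose mean was 10 CPM or higher (9606 for Chad), as the root mean square distance of centred log2 CPM. Nearest to Fmod were Col27a1, a cartilage collagen gene (distance 0.0365), and Slc24a3, a cation exchanger gene (0.045). Nearest to Omd were Pknox2 (0.04) and Hapln1, the link protein gene of cartilage (0.0447). For Bgn they were Pacs1 (0.0241) and Dse, an enzyme gene of dermatan sulfate synthesis (0.0265). Smarca5 and Mef2c were nearest to Dcn, Nrip1 and Zim1 to Aspn, Atp6v0a4 and Syne3 to Lum, and Rab12 and Poli to Prelp. Taf13 and Dock8 were nearest to Epyc, Tubb2b and Lpcat2 to Ogn, and Itm2a and Rbm4 to Chad. Within the family, Bgn and Dcn were nearest to each other (0.0911), as were Aspn and Epyc (0.0929). The nearest member to Fmod was Omd at 0.269. Over the 6 libraries, the SD of log2 CPM was 0.1497 for Bgn and 0.134 for Dcn. It was 0.391 for Aspn, 0.305 for Epyc, 0.712 for Fmod and 0.476 for Omd. A distance can be larger for genes that vary more, so these values do not rank the pairs by likeness of pattern. These distances are descriptions over 6 libraries that share their normalization.

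Other genes of the same leucine-rich repeat family also split. Of 8 on a list of them 6 were tested, with 2 higher and 2 lower with TGF-alpha (median log2 -0.23), beside 15.9% and 14.0% of all tested genes. Podn, which encodes podocan, had 245 and 241 CPM with TGF-alpha, against 103 and 103 CPM in control, a rise (log2 1.23 ± 0.05, adjusted p = 1.61e-10). Chadl, which encodes a chondroadherin-like protein, had 10.1 and 7.56 CPM against 39.6 and 37.3 CPM, a fall (log2 -2.12 ± 0.13, adjusted p = 8.54e-09). With gefitinib added to TGF-alpha, Podn was at 79.7 and 79.9 CPM and lower (log2 -1.61 ± 0.05, adjusted p = 1.04e-11), and Chadl at 31.4 and 34.9 CPM and higher (log2 1.91 ± 0.13, adjusted p = 3.05e-08).

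The fibrillar collagens that the proteoglycans bind fell with TGF-alpha in 7 of 8 cases, against 14.0% of all tested genes called lower. Col3a1 did not pass the test (list median log2 -0.92). Col11a2, which encodes a chain of cartilage type XI collagen, was at 563 and 565 CPM with TGF-alpha against 2235 and 1999.7 CPM in control (log2 -1.91 ± 0.05, adjusted p = 1.88e-12). Col1a1, a type I collagen gene, was at 2769 and 2879 CPM against 6422 and 6020 CPM (log2 -1.14 ± 0.05, adjusted p = 5.42e-10). The 3 type VI collagen genes, whose network biglycan and decorin are known to bind, rose instead, against 15.9% of all tested genes called higher. Col6a3 had 3439 and 3207 CPM with TGF-alpha and 1561 and 1582 CPM in control (log2 1.08 ± 0.04, adjusted p = 1.14e-10). With gefitinib added to TGF-alpha, 7 of the 8 fibrillar genes were higher and Col3a1 lower, and the 3 type VI genes were lower. Over all tested genes 17.0% were called higher and 16.9% lower in that comparison. Against control, 7 of the 8 fibrillar genes were lower with TGF-alpha plus gefitinib (median log2 -0.30), beside 4.26% of all tested genes called lower.

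Genes that build the glycosaminoglycan chains changed in part. Of 20 tested genes for the linkage region and for chondroitin or dermatan sulfate, 2 were higher and 7 lower with TGF-alpha (median log2 -0.15). Over all tested genes 15.9% were called higher and 14.0% lower in that comparison. Chst11, a chondroitin 4-sulfotransferase gene, was at 116 and 115 CPM with TGF-alpha against 291 and 274 CPM in control (log2 -1.30 ± 0.05, adjusted p = 9.95e-11). Of 6 tested keratan sulfate genes 3 were higher and 2 lower (median log2 -0.12). Chst1, which encodes the sulfotransferase acting on galactose in keratan sulfate, was at 25.5 and 25.6 CPM with TGF-alpha, 1.92 and 1.68 CPM with TGF-alpha plus gefitinib, and 3.59 and 4.65 CPM in control. It rose with TGF-alpha (log2 2.62 ± 0.16, adjusted p = 9.95e-09) and fell with gefitinib added to it (log2 -3.82 ± 0.18, adjusted p = 7.43e-10). It was also lower with TGF-alpha plus gefitinib than in control (log2 -1.20 ± 0.23, adjusted p = 0.00376).

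On a list for proteinases that trim these proteins or their collagen partners, 10 genes were tested. With TGF-alpha 6 were lower and 2 higher (median log2 -0.24), beside 14.0% and 15.9% of all tested genes. The 6 include Pcolce, which encodes an enhancer of a procollagen proteinase and not a proteinase. Mmp3, the stromelysin gene, was low and rose, with 5.41 and 4.87 CPM against 0.624 and 0.637 CPM in control (log2 3.01 ± 0.37, adjusted p = 1.86e-05). Tll1, which encodes a tolloid-like proteinase, was at 0.649 and 0.727 CPM against 2.81 and 2.55 CPM (log2 -1.94 ± 0.36, adjusted p = 0.00081). Among 14 ligands and receptors known to bind a family member, 8 were higher and 2 lower (median log2 0.23). Tgfb1, a growth factor that decorin and biglycan bind, had 71.3 and 67.3 CPM with TGF-alpha against 28.6 and 29.0 CPM in control (log2 1.26 ± 0.09, adjusted p = 5.39e-08). Its relatives Tgfb2 and Tgfb3, named after their values were seen, were the 2 that fell. Tgfb2 had 57.2 and 62.3 CPM with TGF-alpha against 121 and 118 CPM in control (log2 -0.998 ± 0.063, adjusted p = 1.58e-08), and Tgfb3 68.2 and 65.3 CPM against 97.5 and 94.8 CPM (log2 -0.53 ± 0.07, adjusted p = 2.43e-05). Cd44, the hyaluronan receptor gene, was at 147 and 148 CPM against 39.2 and 40.1 CPM (log2 1.89 ± 0.06, adjusted p = 1.31e-11). Cd14, a co-receptor for biglycan in innate immune signalling, was at 3.32 and 4.36 CPM against 1.17 and 1.08 CPM (log2 1.76 ± 0.35, adjusted p = 0.00119). Of the macrophage markers tested, Cd68 moved in the same direction as Cd14 and Lyz2 in the opposite one. The part of such cells in this was not tested.

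**Figure D5:**
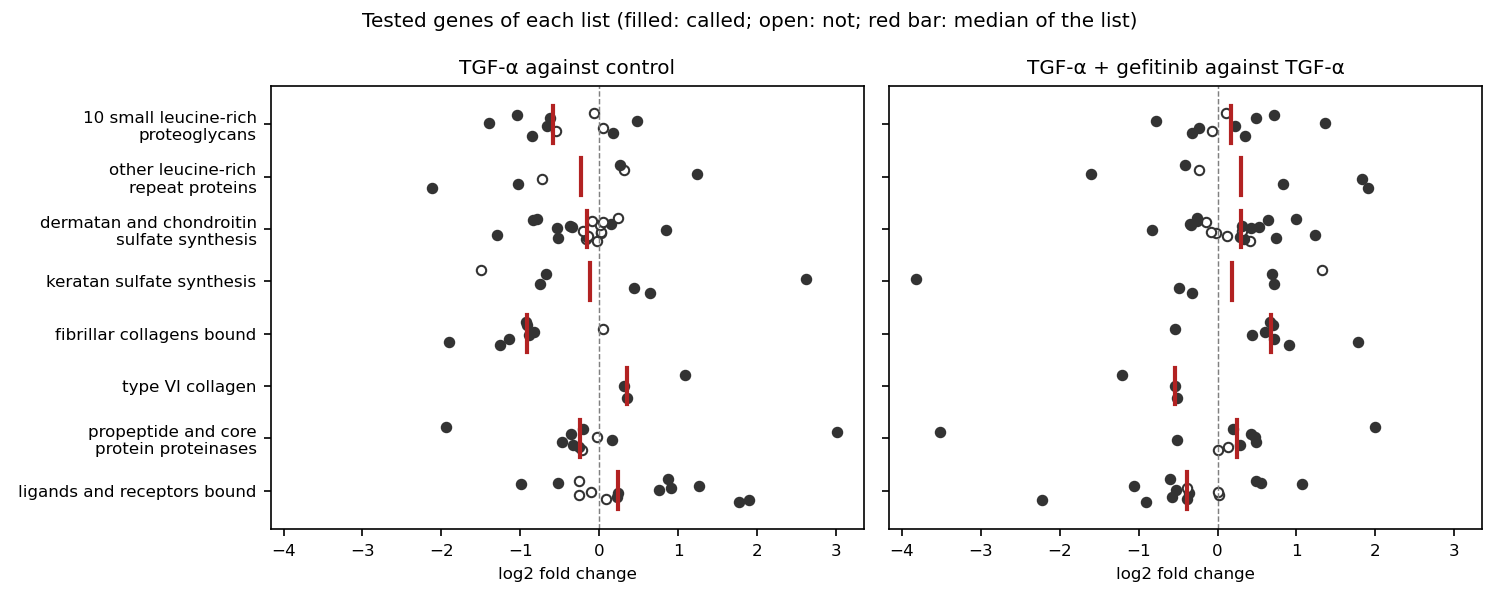
Log2 fold change (x axis) of each tested gene of each list (rows), for TGF-alpha against control and TGF-alpha plus gefitinib against TGF-alpha, with filled points for called genes, open points for the others and a red bar at the list median. The fibrillar collagens have a median of -0.92 in the first comparison and 0.68 in the second, and the type VI collagens 0.35 and -0.54.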

How the data were processed

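RNA of the 6 samples was sequenced with Ion Proton libraries, per the labels' protocols. The authors deposited 1 table of whole-number read counts per gene, not normalized, with a column for each library. Per the submitters' processing notes the genome build was GRCm38. How reads were aligned, counted, assigned to strands and filtered is not given in the sources used here.

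Using edgeR 4.0.16 (R 4.3.3), low genes were removed by filterByExpr at a minimum count of 10, libraries were scaled by TMM and all 6 were fitted with group as the only term (glmQLFit, glmQLFTest), leaving 3 residual degrees of freedom. P-values were two-sided, adjusted by Benjamini-Hochberg over all 15362 tested genes, and called under 0.05. The SE is the log2 fold change divided by the square root of F. CPM values are TMM-scaled. Positions and transcript lengths came from GENCODE M21. Alternatives were RLE or upper-quartile scaling, no filter, DESeq2 1.42.0, the 4 libraries compared, a replicate block, mRNA entries, each library left out and, added later, library totals. The fit was also run on simulated data with far fewer changed genes than were called here and a single fixed spread. That run therefore does not speak for the scaling or the calls in these data. Libraries of a group differed by more than sampling of reads gives (chi-square over its degrees of freedom, 3.03 to 3.83). Named genes were all 10 members, up to 4 called genes a list at least 2-fold changed (otherwise the 2 most abundant), chromosomal neighbours and nearest patterns, and not all are printed. The members and lists were chosen with earlier results of these data known.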

Additional observations from a re-analysis of the deposited data

How the results depend on the processing

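Each comparison was refitted under 14 alternatives, 1 of which (library totals with no scaling factor) was chosen after seeing the data. With TGF-alpha against control (comparison 1), Fmod, Omd, Aspn, Epyc, Ogn and Lum were called in the same direction under all 14. With gefitinib added to TGF-alpha (comparison 2) this held for Fmod, Omd, Ogn, Lum and Bgn, and with TGF-alpha plus gefitinib against control (comparison 3) for Epyc and Aspn. Leaving out each library in turn, 6 to 7, 6 to 8 and 2 to 5 members were called in the 3 comparisons in this order. Members called higher numbered 1 to 2 in comparison 1 and 3 to 5 in comparison 2, and members called lower 2 to 5 in comparison 3. In comparison 3, 3 were called with library totals. Over all genes DESeq2 called 3472 in comparison 2 and 912 in comparison 3, in place of 5217 and 1463, and leaving out a library gave 649 to 1291 in comparison 3. Signs of uncalled differences turned in Dcn (comparison 1, log2 -0.034 to 0.13 with a library left out), Chad (comparison 2, -0.27 to 0.18), and, with library totals, Prelp (comparison 1, 0.0016) and Fmod (comparison 3, 0.0316). The cause was not tested. A fit with 1 library left in a group assumes that it varies like the others. With library totals the median log2 fold change of all genes was at most 0.0693.

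Replicate numbers were shared between groups, but they are not said to mark a common litter, batch or day, so they were not taken as pairs. Same-numbered libraries also did not deviate together, with correlations of 0.07, -0.02 and 0.01 across genes. With the replicate number as a block, 7, 8 and 5 members were called in the 3 comparisons. In comparison 3, Dcn was then called (adjusted p = 0.0205) and Omd was not (adjusted p = 0.0504). Without a filter on low counts 7 members were called in comparison 3, Dcn and Ogn added. The longest transcript lowered the length-scaled levels of Bgn, Dcn, Fmod, Prelp, Omd and Epyc. Depth limits Chad, at 47 to 95 counts. Intervals cover the spread between 2 libraries a group and no biological range that these libraries lack.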
